A study of Mus musculus with 13 samples.

Results

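The proteins of the cytosolic ribosome were represented by 54 genes, 33 for the large and 21 for the small subunit, out of 19938 genes measured in sorted erythroid cells of mouse fetal liver. Members were chosen by symbol alone: Rpl or Rps followed by a digit, or Rplp0, Rplp1, Rplp2 or Rpsa, on a probe set listed with that single symbol. Kinases named Rps6k, pseudogenes and like genes whose symbol ends in l were left out, and each gene was read from its brightest probe set over the 13 arrays. The letters of the rule kept 57 genes. Of these, Rpl7l1 (a like gene), Rps19bp1 (a binding protein of Rps19) and Rps23rg1 (a retrogene of Rps23) are not core ribosomal proteins and were described apart. A further 19 ribosomal protein symbols, Rpl3, Rpl11, Rps24 and Rps26 among them, occurred only on probe sets listed with several symbols and were not measured as genes.

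Each ribosome joins a small subunit, which reads the mRNA, to a large subunit, which forms peptide bonds, and both are assembled in the nucleolus from ribosomal RNA and proteins that are needed in equal amounts. The mRNAs of these proteins are among the most abundant in growing cells and typically begin with a C followed by a run of pyrimidines, the terminal oligopyrimidine tract through which mTOR signalling controls their translation. Red cell precursors depend on them heavily, and loss of a single copy of one of several of these genes causes Diamond-Blackfan anaemia, a failure of erythropoiesis. Many of these genes also have processed copies elsewhere in the genome, and an array cannot always tell a gene from such a copy.

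Adar encodes ADAR1, an enzyme that edits double-stranded RNA by turning adenosines into inosines. The knockout embryos carried 1 floxed and 1 null Adar allele (Adar fl/-) and the controls 1 floxed and 1 wild-type allele (Adar fl/+). All 6 embryos were at E14.5, carried EpoR-Cre ki/+ (Cre at the erythropoietin receptor locus, active in the erythroid lineage) and had the background that the labels write as C57JB6. The R26 EYFP reporter allele was ki/+ in the 3 controls and in knockout embryo 1, and +/+ in knockout embryos 10 and 11. Sorting used the transferrin receptor CD71 and Ter119, a surface marker that erythroid cells gain as they mature. The least mature population, Ter119- CD71+, was taken from knockout embryos 1, 10 and 11 and control embryos 2, 13 and 15. The intermediate one, Ter119+ CD71+, lacked knockout embryo 1, and the most mature one, Ter119+ CD71med, was measured in control embryos 13 and 15 alone. Within Ter119+ CD71+ cells the R26 EYFP allele and the Adar genotype therefore cannot be told apart. Each sample came from 1 mouse, and the 13 arrays came from these 6 embryos. The p-values rest on the spread between embryos within a group, pooled over the 5 groups. In comparisons of populations the same embryos stand on both sides, and the main fit did not pair them. In RNA from whole sorted populations, fewer cells of a type and less RNA per cell cannot be told apart.

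Levels are log2 signals that had been quantile-normalized, so each is relative to the other transcripts of its array and not an amount per cell. The Adar signal did not separate the genotypes (difference -0.08, SE 0.23, adjusted p = 0.951 by limma in Ter119- CD71+ cells, and 0.05, SE 0.25, adjusted p = 0.973 in Ter119+ CD71+ cells). The sources used here do not place its probes relative to the deleted part, so this is no check of the labels. The mean of 10 erythroid markers lay between 10.37 and 11.73 on every array. The array of Ter119+ CD71+ cells of knockout embryo 10 had an upper quartile over all genes of 7.47 against 7.77 in embryo 11, below all 3 control arrays of that population (7.54 to 7.69). For the knockout comparison in that population and the knockout step, the counts of called members are given with and without this array. Differences of single genes are given only with it included.

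Ribosomal protein signals were near the top of every array. The median member stood at the 99.5th to 99.6th percentile of all genes in Ter119- CD71+ cells of both genotypes, at the 99.0th to 99.5th in Ter119+ CD71+ cells and at the 98.5th in Ter119+ CD71med cells. Between 41 and 46 of the 54 genes were among the top 5% of genes on each array. Each gene was read from its brightest probe set, and 38 members had more than 1 to choose from, against 999 of all 19938 genes. That choice can therefore raise the rank of members more than that of other genes, and its part was not tested. The brightest were Rps4x (mean 12.75 over 13 arrays), Rpl10a (12.71), Rps6 (12.70) and Rpl4 (12.69), while the highest signal of any gene on an array lay between 12.90 and 13.07. At the other end, Rpl12 had a mean of 7.22, Rpl22 of 7.70, Rpl30 of 8.30, Rps15a of 8.61, Rps21 of 9.95 and Rps19 of 10.37. Probe sets differ in how well they bind, so this is an order of array signals and not of mRNA amounts. The order was largely shared between groups: Spearman's rho between the group means of the 54 genes was 0.989 between genotypes in Ter119- CD71+ cells, 0.993 between genotypes in Ter119+ CD71+ cells and 0.943 between the least and most mature controls, as a description of genes that share the same arrays.

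The mean over the members was lower in each more mature population, and the genotypes overlapped. In Ter119- CD71+ cells the large subunit mean was 11.42, 11.44 and 11.42 in knockout embryos 1, 10 and 11 and 11.44, 11.41 and 11.41 in control embryos 2, 13 and 15. In Ter119+ CD71+ cells it was 11.10 and 11.28 in knockout embryos 10 and 11 and 11.17, 11.23 and 11.15 in the controls, and in Ter119+ CD71med cells it was 10.88 and 10.87 in control embryos 13 and 15. Knockout and control arrays overlapped in both populations, and each more mature population lay below the less mature one without overlap. For the small subunit, the knockout arrays had means of 11.78, 11.79 and 11.76 and the controls 11.79, 11.73 and 11.66 in Ter119- CD71+ cells. The Ter119+ CD71+ arrays had 11.44 and 11.67 in the knockouts and 11.52, 11.60 and 11.44 in the controls, and the Ter119+ CD71med arrays 11.28 and 11.21. Here one Ter119+ CD71+ array, knockout embryo 11 at 11.67, reached the lowest Ter119- CD71+ control at 11.66.

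**Figure D1:**
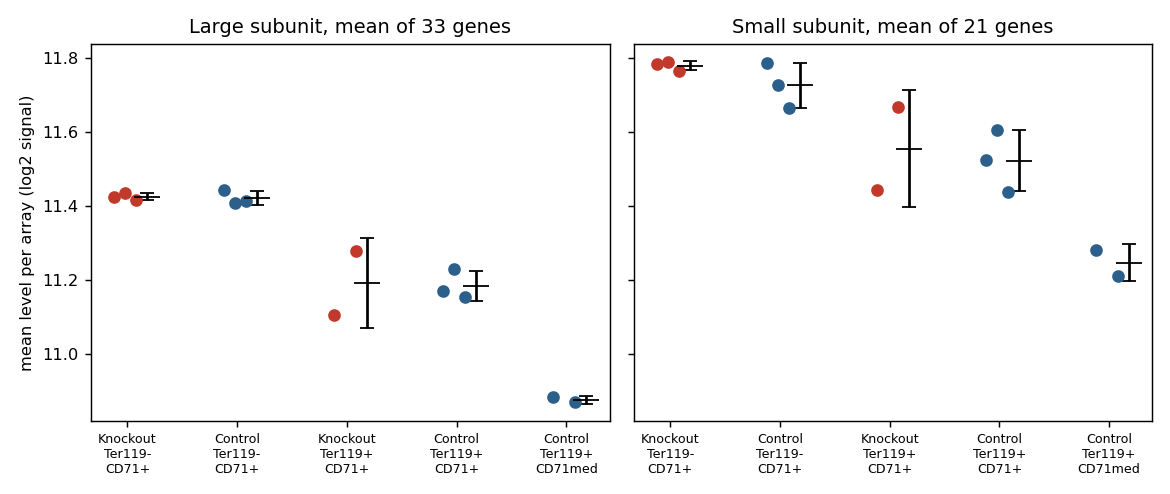
Mean log2 signal of the 33 large subunit genes (left) and the 21 small subunit genes (right) on each array, by group. Points are embryos, red for knockout and blue for control, and the bar beside them is the group mean with its SD (3 arrays, or 2 for knockout Ter119+ CD71+ and control Ter119+ CD71med cells). The vertical axis does not start at 0. Genotypes overlap within a population, and the Ter119+ CD71med arrays are lowest, at 10.87 and 10.88 for the large and 11.21 and 11.28 for the small subunit.

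The first comparison was between genotypes. In Ter119- CD71+ cells 0 of 54 members were called by limma at an adjusted p under 0.05, where 2.21% of all genes were (1.35% higher and 0.858% lower), and 0 had an unadjusted p under 0.05. The median difference of knockout against control was 0.003 in the large and 0.030 in the small subunit, beside 0.0015 over all genes. Single members ran from -0.47 (Rpl12) to 0.26 (Rps14), and for 48 of 54 the 95% interval of the difference lay within 0.5 log2 units of 0. The smallest adjusted p belonged to Rpl38, a large subunit protein known for its part in translating Hox mRNAs. Its signal was 11.54, 11.59 and 11.49 in knockouts and 11.42, 11.28 and 11.34 in controls, a difference of 0.19 (SE 0.10, adjusted p = 0.421). Next was Rpl36 with a difference of 0.21 (SE 0.11, adjusted p = 0.433). The arrays of both genes did not overlap between genotypes, as was the case for 4 members in each direction, where 9.92% of all genes lay apart in the higher and 11.6% in the lower direction. The mean of the myeloid marker list, which was 7.63 in knockout embryo 10 and 6.18 and 6.11 in embryos 1 and 11 against 5.29 to 5.67 in controls, moved with genotype in this population. A fit that also held this mean called no member here. Since the main fit called none either, this cannot show what part these markers had. The erythroid marker mean was 10.37 to 10.59 in knockouts and 10.68 to 10.90 in controls, and its part was not tested.

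In Ter119+ CD71+ cells 0 of 54 members were called again, where 2.56% of all genes were (1.48% higher and 1.08% lower), with 3 at an unadjusted p under 0.05. The median difference was 0.021 in the large and 0.005 in the small subunit, beside 0.024 over all genes. The range was -0.42 (Rplp2) to 0.43 (Rps19), and 43 of 54 intervals lay within 0.5 of 0. These were 25 of 25 for members with a mean of 12 or more, 16 of 20 between 10 and 12 and 2 of 9 under 10. Among all 19938 genes 12140 intervals did so. Quantile normalization again moved the median over the 54 from 0.013 to 0.10. The erythroid marker mean was 11.13 and 11.24 in knockouts against 11.41 to 11.68 in controls, and the hepatocyte marker mean 6.61 and 6.19 against 6.84 to 7.14. Neither overlapped between genotypes, and their part in these values was not tested. Rps19, the gene most often mutated in Diamond-Blackfan anaemia, had 10.42 and 10.79 in knockout embryos 10 and 11 and 10.07, 10.54 and 9.92 in control embryos 2, 13 and 15. These overlap, with a difference of 0.43 (SE 0.18, adjusted p = 0.311). Rpl36 had 11.27 and 11.39 in knockouts and 11.07, 11.23 and 10.87 in controls, which do not overlap, with a difference of 0.27 (SE 0.12, adjusted p = 0.366). Without the array of knockout embryo 11, which leaves embryo 10 alone to stand for the knockouts and assumes that it varies like the other groups, Rplp2 (-0.74, adjusted p = 0.0474) and Rpl8 (-0.48, adjusted p = 0.0412) were called lower by limma. Without embryo 10 no member was called. The knockout effect was not shown to differ between the 2 populations for any member (0 called where 0.01% of all genes were, 0 at an unadjusted p under 0.05). For 39 of 54 members the 95% interval of that difference lay within 0.5 of 0, as for 6682 of all 19938 genes. By mean signal these were 24 of 25 at 12 or more, 14 of 20 between 10 and 12 and 1 of 9 under 10. The largest estimates were -0.48 (SE 0.32) for Rps15a and 0.29 (SE 0.24) for Rps19, and Rps15a and Rps20 (0.26) had the smallest p among members (adjusted p = 0.999 for both).

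Over the whole control span, from Ter119- CD71+ to Ter119+ CD71med cells, 30 of 54 ribosomal protein genes fell and 0 rose (limma, adjusted p under 0.05), where 20.1% of all genes were called lower and 18.1% higher. The large subunit had 19 of 33 lower with a median of -0.34, and the small subunit 11 of 21 with a median of -0.43, while the median over all genes was 0.14. The difference was below 0 for 52 of 54 members, and for 47 every Ter119+ CD71med array lay below every Ter119- CD71+ array, where 24.1% of all genes did. The sizes differed widely, from -2.18 to 0.09. This span used arrays that also enter both control steps below, so the 3 comparisons are not independent of each other.

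**Figure D2:**
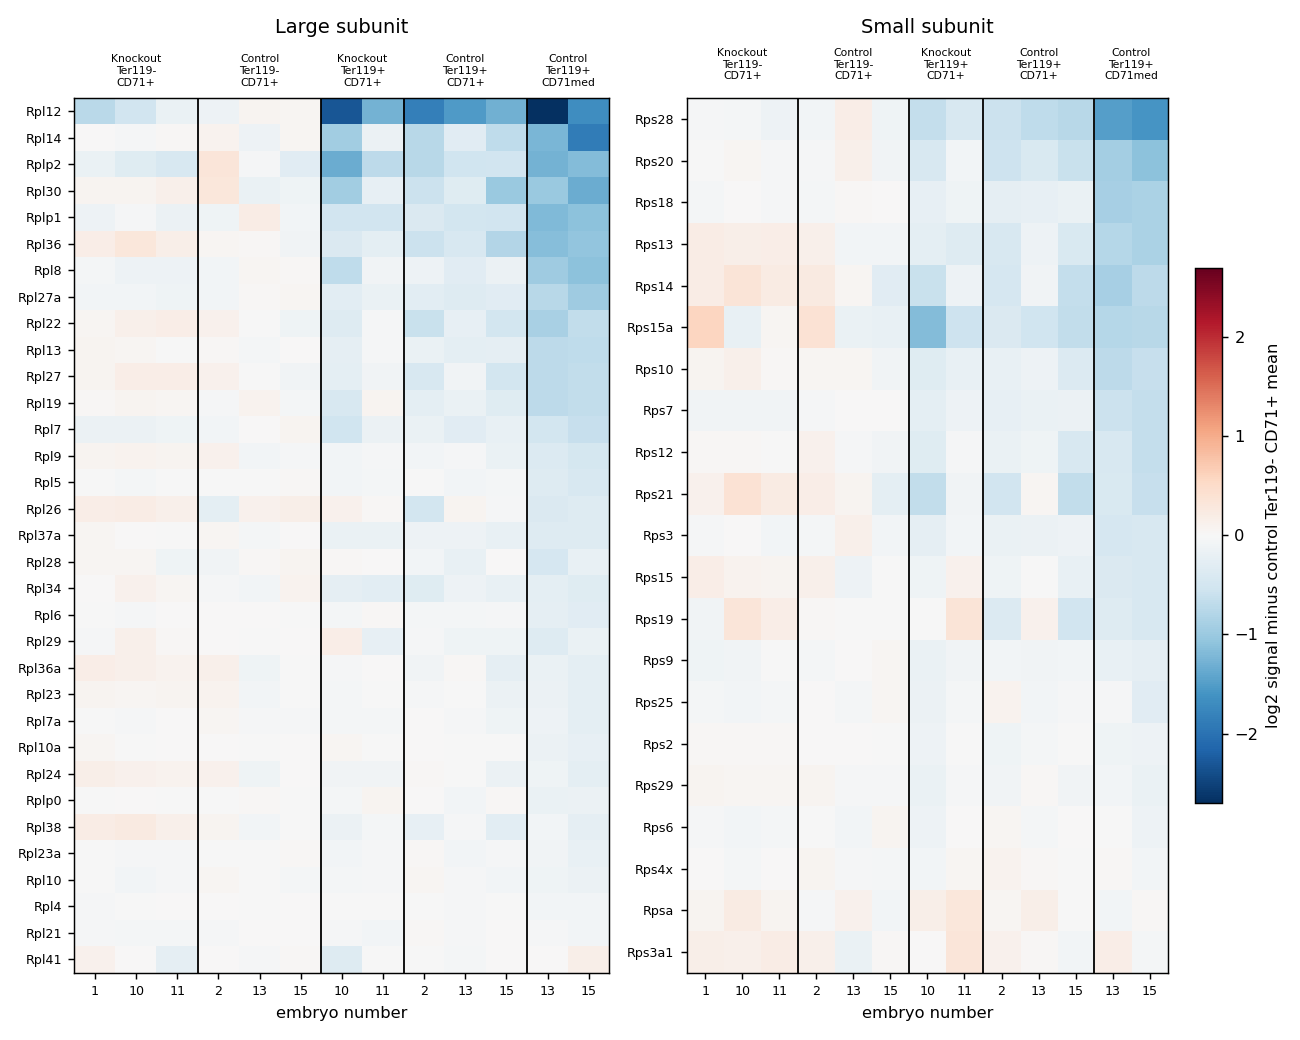
Log2 signal of each member on each array minus that gene's mean in control Ter119- CD71+ cells, large subunit on the left and small subunit on the right. Columns are arrays, labelled by embryo number and grouped by genotype and population, and rows are genes ordered by their difference over the control span. Blue is lower and red higher. Rpl12, Rpl14, Rplp2, Rps28 and Rps20 at the top darken towards Ter119+ CD71med cells, and Rpl4, Rpl21, Rps6 and Rps4x near the bottom stay close to white.

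Among the large subunit genes the stalk proteins, which recruit translation factors to the ribosome, did not change alike. Rplp1 had 12.05, 12.37 and 12.09 in Ter119- CD71+ controls, 11.78, 11.69 and 11.65 in Ter119+ CD71+ controls and 10.97 and 11.07 in Ter119+ CD71med controls. The 3 populations did not overlap, and the span difference was -1.15 (SE 0.12, adjusted p = 3.61e-06). Rplp2 went from 9.65, 9.28 and 9.01 through 8.57, 8.78 and 8.79 to 8.04 and 8.15, a fall by 1.22 over the span (SE 0.19, adjusted p = 0.000202). Rplp0, the protein that anchors these partners, had 12.44, 12.49 and 12.45 at first and 12.29 and 12.30 at last. That decline of -0.16 (SE 0.10) did not pass the test (adjusted p = 0.184), although its arrays lay apart. The other probe set of Rplp0 was dimmer (mean 11.64 against 12.43) and had a difference of -0.45, and it was called lower. Rplp0 was also called lower with quantile normalization again (-0.38, adjusted p = 0.00320) and with the mean of its probe sets (-0.31, adjusted p = 0.0255).

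Rpl12, which lies at the base of the stalk, had the largest fall of all members. Its signal was 8.16, 8.37 and 8.35 in Ter119- CD71+ controls, 6.45, 6.76 and 7.0 in Ter119+ CD71+ controls and 5.60 and 6.62 in Ter119+ CD71med controls. The least mature cells lay far above the others, and the more mature populations overlapped. The span difference of -2.18 (SE 0.31, adjusted p = 6.63e-05) corresponds to a signal 4.54 times lower. It rests on 1 probe set, and 8 others that name Rpl12 beside further symbols are not shown singly. The Ter119+ CD71med values lay near the medians over all genes of those arrays (5.87 and 6.01), so the size of this fall is uncertain. Rpl14, a protein on the outer face of the large subunit, had 9.57, 9.34 and 9.54, then 8.74, 9.17 and 8.79, then 8.25 and 7.60, and fell by 1.56 (SE 0.22, adjusted p = 6.5e-05). Further members that fell over the span by 0.8 log2 units or more were Rpl30 (-1.17), Rpl36 (-1.10), Rpl8 (-1.03) and Rpl27a (-0.85). Rpl5, which forms the 5S particle that stabilises p53 when ribosome assembly fails, fell by a smaller amount: 12.08, 12.07 and 12.11 became 12.07, 12.01 and 12.04 and then 11.75 and 11.65 (-0.39, SE 0.10, adjusted p = 0.00513). Its partner Rpl11 was not among the measured genes. Rpl4 (-0.08, SE 0.09) and Rpl10a (-0.19, SE 0.09), among the brightest of the large subunit, were not called (adjusted p = 0.497 and 0.12). Rpl10a was called lower with quantile normalization again (-0.37, adjusted p = 0.00365), median centring (-0.27, adjusted p = 0.0441) or an intensity trend in eBayes (adjusted p = 0.0312). Rpl41 was the only large subunit gene with a difference above 0 (0.09, SE 0.13, adjusted p = 0.590).

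In the small subunit Rps28, a protein at the mRNA exit channel, had the smallest adjusted p of all members over the span. Its signal was 11.58, 11.84 and 11.54 in Ter119- CD71+ controls, 11.07, 10.96 and 10.91 in Ter119+ CD71+ controls and 10.17 and 10.06 in Ter119+ CD71med controls. No array of one population reached another, and the span difference of -1.54 (SE 0.12, adjusted p = 4.47e-07) corresponds to a signal 2.91 times lower. All 7 probe sets listed for Rps28 alone were called lower, between -1.45 and -1.54, and 1 of them had values identical to another. Rps20 fell by 1.02 (SE 0.13), Rps18 by 0.88 (SE 0.10) and Rps13 by 0.82 (SE 0.12), all called. By contrast Rps6, the protein phosphorylated by S6 kinase, had 12.72, 12.66 and 12.80, then 12.78, 12.67 and 12.74, then 12.72 and 12.59. The populations overlapped throughout, and the difference of -0.08 (SE 0.10, adjusted p = 0.569) had a 95% interval within 0.5 of 0. Rps4x at -0.02 (SE 0.10, adjusted p = 0.878) and Rps3a1 at 0.07 (SE 0.13) were likewise not called, and the sign of Rps4x changed under several other settings, its own probe sets included. Rps19 had 10.46, 10.42 and 10.42 in the least and 10.090 and 9.997 in the most mature controls, a difference of -0.39 (SE 0.18, adjusted p = 0.10) that did not pass, with a Ter119+ CD71+ control as high as 10.54 and another as low as 9.92 between them. With only the groups compared in the fit it was called lower (adjusted p = 0.0413).

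**Figure D3:**
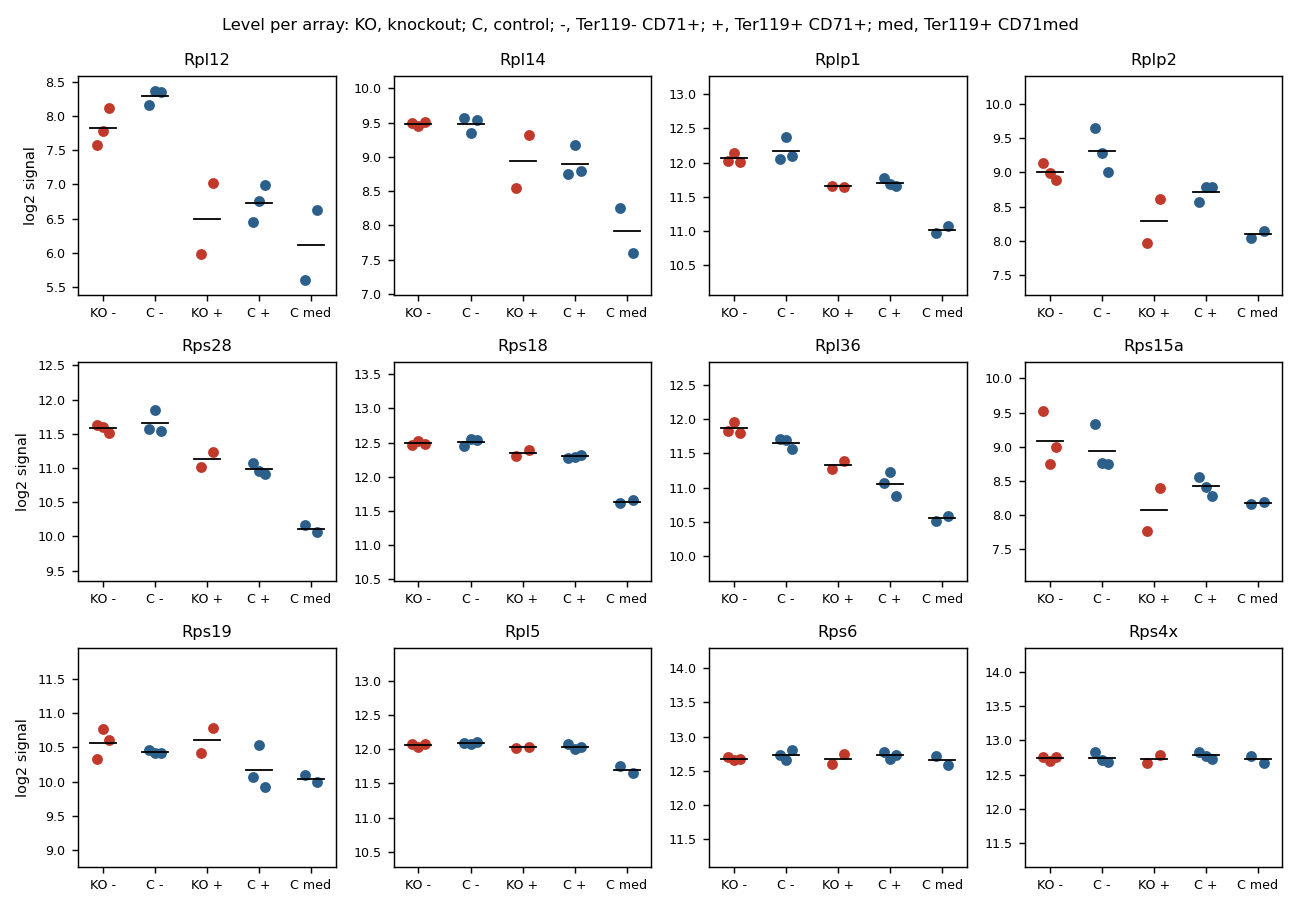
Log2 signal on each array for 12 members. Points are embryos, red for knockout and blue for control, lines are group means, and every panel spans the same range of log2 units on its vertical axis. Rplp1, Rps28 and Rpl36 step down at both control steps, Rps18 and Rpl5 mainly in Ter119+ CD71med cells, Rpl12 mainly before them, and Rps6 and Rps4x keep to one level.

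Members were called lower in both control steps, and the sizes of the steps were not compared by a test. From Ter119- CD71+ to Ter119+ CD71+ controls 10 of 54 members fell and 0 rose, where 11.7% of all genes were called lower and 7.27% higher, and the median was -0.16 beside 0.04 over all genes. The 10 were Rpl12, Rpl22, Rpl27a, Rpl30, Rpl36, Rplp1, Rplp2, Rps13, Rps20 and Rps28. Rpl12 (-1.56, SE 0.28) and Rps28 (-0.67, SE 0.11) kept their call when any of the 13 arrays was left out, whereas Rpl30 (-0.63, SE 0.20) lost it in 8 of 13 such fits and Rplp2 (-0.60, SE 0.17) in 4. The count itself depended on single arrays: it was 6 without control Ter119- CD71+ embryo 2, and 5 without control Ter119- CD71+ embryo 13 or without control Ter119+ CD71+ embryo 2 or 15. It also depended on the setting, with 19 calls after quantile normalization again, 20 with array weights and 6 with median centring.

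From Ter119+ CD71+ to Ter119+ CD71med controls 13 of 54 members fell and 0 rose, where 9.21% of all genes were called lower and 4.11% higher, with a median of -0.23 beside 0.08 over all genes. They were Rpl5, Rpl8, Rpl13, Rpl14, Rpl27a, Rpl36, Rplp1, Rps7, Rps10, Rps13, Rps18, Rps20 and Rps28. Of these, Rpl27a, Rpl36, Rplp1, Rps13, Rps20 and Rps28 were also called in the earlier step, which shares the Ter119+ CD71+ arrays. Rpl8, a protein close to the peptidyl transferase centre, had 11.51, 11.35 and 11.50 before this step and 10.71 and 10.55 after it (-0.83, SE 0.15, adjusted p = 0.00268), with -0.20 (adjusted p = 0.384) in the earlier step. Rps18 likewise had 12.28, 12.29 and 12.32 before and 11.61 and 11.66 after (-0.66, SE 0.10, adjusted p = 0.000861). Rpl14 (-0.98, SE 0.22, adjusted p = 0.0102) lost its call without the Ter119+ CD71med array of embryo 15. The count was 4 without that array, 8 without control Ter119+ CD71+ embryo 13 and 24 after quantile normalization again.

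**Figure D4:**
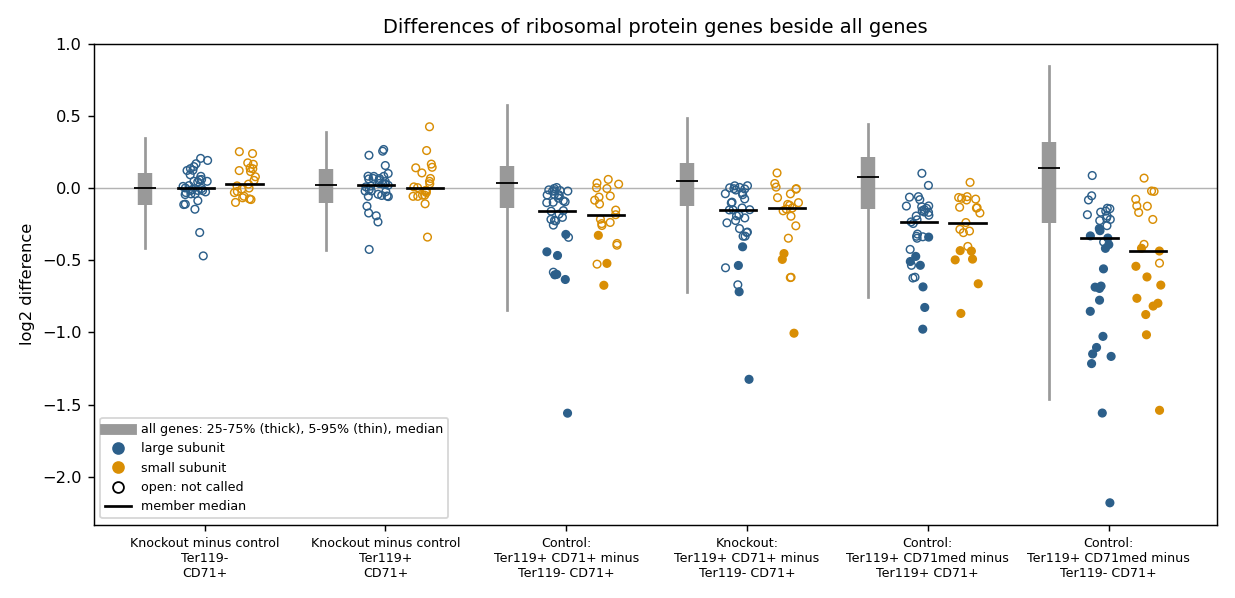
Log2 difference of each member in 6 comparisons, large subunit in blue and small subunit in orange, filled where called (limma, adjusted p under 0.05) and open where not, with black lines at the member medians. Grey bars beside them show the spread of all 19938 genes, and points were scattered sideways for legibility. No point is filled in the knockout comparisons, and all filled points in the maturation comparisons lie below 0.

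In knockout cells only the first step was measured. Between Ter119- CD71+ and Ter119+ CD71+ knockout cells 7 of 54 members fell and 0 rose, where 6.24% of all genes were called lower and 4.5% higher, and the median was -0.15 beside 0.05 over all genes. The 7 were Rpl12, Rpl36, Rplp1, Rplp2, Rps13, Rps15a and Rps28. Rpl12 had 7.57, 7.79 and 8.12 in knockout Ter119- CD71+ cells and 5.98 and 7.03 in Ter119+ CD71+ cells (-1.32, SE 0.31, adjusted p = 0.0129, against -1.56 in controls). Rps15a had 9.52, 8.75 and 8.99 before and 7.77 and 8.40 after (-1.01, SE 0.24, adjusted p = 0.0139, against -0.53, adjusted p = 0.112, in controls). The groups lay apart for both genes in the knockout step, and the steps of the genotypes were not shown to differ for either, as the test of the difference above gives. Much of this count rested on knockout embryo 10: without its Ter119+ CD71+ array 0 members were called and the median was -0.08, and without that of embryo 11 the count was 12 and the median -0.21. It was 2 without the Ter119- CD71+ array of embryo 1 or 11, 4 without that of embryo 10, 3 with only the groups compared, 1 with array weights, 3 with embryo as a fixed replicate block and 1 in a fit that also held the myeloid marker mean, which was 6.11 to 7.63 in knockout Ter119- CD71+ arrays and 5.48 to 5.69 in Ter119+ CD71+ arrays.

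Members with lower signals fell more on the log2 scale. Of 9 genes with a mean under 10 over the 13 arrays, 7 fell over the control span and the median was -0.78. Of 20 genes between 10 and 12, 14 fell with a median of -0.62, and of 25 genes at 12 or more, 9 fell with a median of -0.21. Over all genes of any level 20.1% were called lower, and the share among genes of like signal was not computed. The dim and bright genes also differed in how their probe set was chosen. All genes under 10 except Rps21 had a single probe set, whereas all at 12 or more except Rpl4 and Rpl37a were read from the brightest of several. The part of this choice was not tested. Across the 54 genes Pearson's r between level and difference was 0.614 and Spearman's rho 0.662, as a description over genes of the same arrays. The mean over the 13 arrays includes the control arrays at both ends of the span. A fall itself therefore lowers the level, so level and difference are not independent. Signals at 12 or more lie within about 1 log2 unit of the highest signal of any array, and whether the scale is compressed there was not tested. Several dimmer probe sets of bright genes showed larger differences: Rpl23 had -0.22 on its brightest probe set (mean 12.30) and -0.79 on the other (9.80), and Rpsa had -0.02 (11.79) and -0.64 on its dimmest (10.94). Among 19 members whose brightest and dimmest probe sets differed by over 0.5, the dimmest had the lower difference in 13. Other bright genes did not show this. The 8 probe sets of Rps6 had means from 12.005 to 12.697 and all lay between -0.08 and -0.01. Likewise the 9 of Rpl21 had means from 11.54 to 12.55 and lay between -0.09 and -0.04.

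**Figure D5:**
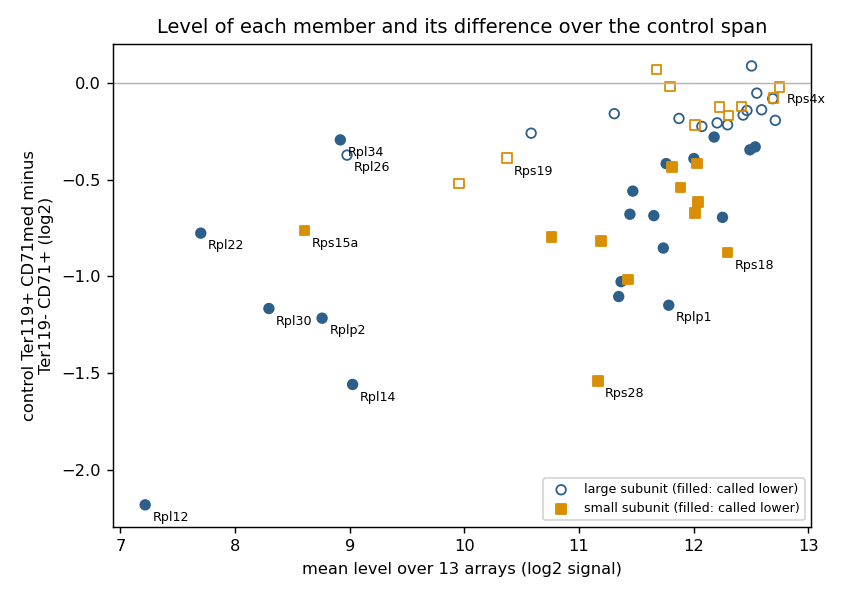
Mean log2 signal over 13 arrays (horizontal axis) against the log2 difference over the control span (vertical axis) for the 54 members, circles for large and squares for small subunit genes, filled where called lower. Genes at 12 or more cluster between -0.88 and 0.09, and Rpl12, the dimmest, has the lowest difference at -2.18.

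Probe sets that the choice of members had left out moved the same way. Of 38 members with several single-symbol probe sets, 36 had every one below 0 over the control span, Rps4x had probe sets of both signs, and Rpl41 had identical values on all 3 of its probe sets, above 0. In 5 of the 38, Rpl41 and Rps28 among them, some probe sets repeated the values of another, and the counts below include such repeats. In a fit over all 35556 probe sets, 90 of the 155 unused probe sets of members were called lower and 0 higher, where 14.7% of all probe sets were called lower. The 237 probe sets naming a ribosomal protein beside other symbols included 129 called lower and 0 higher. Of 90 among these that named only ribosomal proteins outside the 54, such as Rpl3, Rpl11 and Rps24, 47 were called lower. Probe sets of a family can share transcripts or probes, so these are not independent of the members, and none was called in either knockout comparison, where 0.352% of all probe sets were called higher and 0.0619% lower in Ter119- CD71+ cells and 0.647% and 0.456% in Ter119+ CD71+ cells.

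The subgroup known from Diamond-Blackfan anaemia had 10 of 20 listed genes measured: Rpl5, Rpl9, Rpl26, Rpl27, Rps7, Rps10, Rps15a, Rps19, Rps28 and Rps29. All 10 were below 0 over the control span, 7 of them called, with a median of -0.52 against -0.39 over the 54 and with 20.1% of all genes called lower. The call of Rps15a in this span ended with quantile normalization again (-0.37, adjusted p = 0.284), array weights (adjusted p = 0.0890) or the myeloid mean in the fit (adjusted p = 0.132), and without control Ter119- CD71+ embryo 2 or either Ter119+ CD71med array. Rpl26, Rps19 and Rps29 were not called, although Rps29 was with quantile normalization again (-0.38, adjusted p = 0.00534, against -0.12). In the knockout comparisons 0 of 10 were called, where 2.21% and 2.56% of all genes were, with medians of 0.08 in Ter119- CD71+ and 0.02 in Ter119+ CD71+ cells.

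The starts of these genes were read from the RefSeq promoter table (GRCm38.p6), which held 50 starts for 43 of the 54 members. Of these starts 18% were a C followed by at least 4 pyrimidines, compared with 2.51% of all 32851 starts in the table. The 9 genes with such a start were Rpl14, Rpl28, Rpl38, Rplp2, Rps6, Rps10, Rps15a, Rps18 and Rps21. Over the control span 6 of them fell with a median of -0.67, and of the other 34 matched genes 17 fell with a median of -0.32, where 20.1% of all genes were called lower. Both sets reached close to 0 at the upper end, with -0.08 for Rps6 and 0.09 for Rpl41. The windows shown run from 5 bases before to 15 bases from the annotated start, and capitals mark the pyrimidines that run from the start, for 4 members that begin with such a tract and 2 with large falls that do not.

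Rpl14: tctctCTTCTCgctgagcgc
Rplp2: tcttcCTTTCgccgccggac
Rps18: ccgctCTCTCTTCCacagga
Rps6: cgggcCTCTTTTTCgtgacg
Rps28: gcggtCTCgcgagagcgaaa
Rpl12: gatccgtcttttcggctttc

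These windows lie at chr9:120571512-120571531 (plus strand) for Rpl14, chr7:141447646-141447665 (plus) for Rplp2, chr17:33955651-33955670 (minus) for Rps18, chr4:86857353-86857372 (minus) for Rps6, chr17:33824548-33824567 (minus) for Rps28 and chr2:32961707-32961726 (plus) for Rpl12. Rps18 and Rps6 both begin with tracts of 9 pyrimidines, and Rps18 fell by 0.88 while Rps6 had a difference of -0.08. Rps28 has 3 pyrimidines before a purine breaks the run, and the annotated start of Rpl12 is a G that precedes a pyrimidine stretch by a single base. An annotated start can be off by a few bases, and C followed by 4 pyrimidines occurred anywhere in these windows for 46% of the member starts and 24.3% of all starts.

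Of motifs searched on both strands in the 250 bases before and 50 after each start, CCGGAAG (the core recognised by ETS factors such as GABPA) was in 36% of member starts and 8.86% of all, ATGGCG (part of the YY1 motif) in 26% and 8.93%, GGGCGG (the core of the Sp1 motif) in 60% and 35.7%, and TATAAA in 10% and 13.6%. GGCG, the end of ATGGCG, also lies within GGGCGG, and the motifs were counted separately. The 250 bases before the start are shown for Rps18, which fell, and for Rps6, which was not called, since both begin with the same length of tract. Capitals mark CCGGAAG.

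Rps18: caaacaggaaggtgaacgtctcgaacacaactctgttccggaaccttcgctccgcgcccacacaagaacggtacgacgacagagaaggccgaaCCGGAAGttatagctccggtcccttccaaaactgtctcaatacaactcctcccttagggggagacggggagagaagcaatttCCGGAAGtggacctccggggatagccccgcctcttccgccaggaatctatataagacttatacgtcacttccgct
Rps6: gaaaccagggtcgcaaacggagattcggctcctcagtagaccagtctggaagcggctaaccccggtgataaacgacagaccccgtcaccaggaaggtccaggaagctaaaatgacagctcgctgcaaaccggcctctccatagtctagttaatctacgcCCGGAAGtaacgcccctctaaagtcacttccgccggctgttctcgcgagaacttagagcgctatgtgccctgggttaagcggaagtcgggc

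They lie at chr17:33955666-33955915 and chr4:86857368-86857617, both on the minus strand. Rps18 holds 2 matches to CCGGAAG in these bases and Rps6 holds 1, and a match is a string of letters, not a measured site.

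Other lists of genes, not all of which serve translation, gave a wider view of the same span. Of 16 measured translation factors and further genes of the terminal oligopyrimidine class, 11 fell and 2 rose, with a median of -0.48, where 20.1% of all genes were called lower and 18.1% higher. Eif4b, a cofactor of the helicase that unwinds mRNA starts, fell by 1.63 (SE 0.12, adjusted p = 3.26e-07) and Eif3f, a subunit of the initiation factor that binds the small subunit, by 1.45 (SE 0.12). Eef1a1, which brings aminoacyl-tRNA to the ribosome, had -0.07 (SE 0.10, adjusted p = 0.565), and Pabpc1, the poly(A)-binding protein, rose by 0.51 (SE 0.11), as did Vim (0.67, SE 0.24). Fau, which encodes the small subunit protein Rps30 as a fusion, fell by 0.56 (SE 0.11, adjusted p = 0.000773). In the knockout comparisons Vim was higher in Ter119- CD71+ cells (1.18, SE 0.22, adjusted p = 0.0139) and Eif3f in Ter119+ CD71+ cells (0.63, SE 0.12, adjusted p = 0.0143), and no other gene of that list was called in either. All 14 myeloid markers were also above 0 in the Ter119- CD71+ comparison, 4 of them called, where 1.35% of all genes were called higher. Their part in the Vim difference was not tested.

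Of 77 genes for proteins of the mitochondrial ribosome, 65 fell over the control span and 0 rose, with a median of -1.11, where 20.1% of all genes were called lower and 18.1% higher, among them Mrps35 (-2.61, SE 0.12) and Mrps18b (-3.25, SE 0.20). In the knockout comparisons 0 and 1 of the 77 were called, where 2.21% and 2.56% of all genes were, the 1 being Mrpl20 in Ter119+ CD71+ cells, with medians of -0.25 in both populations, where the cytosolic members had 0.016 and 0.013. Of 8 measured genes that assist the assembly of single ribosomal proteins or of the small subunit, Rps19bp1 among them, 7 fell over the span, with a median of -1.01, where 20.1% of all genes were called lower. They included Ltv1 (-2.10, SE 0.20) and Nob1 (-1.63, SE 0.15), which act on the pre-small subunit, and Tsr2, the escort of Rps26 (-1.26, SE 0.29). Their signals were lower than those of most members, and the difference between lists was not tested.

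The members apart from the subunits had signals of 6.36 to 7.84. Rpl7l1 fell over the control span by 1.20 (SE 0.23, adjusted p = 0.000809) and Rps19bp1 by 0.75 (SE 0.14, adjusted p = 0.000604), while Rps23rg1 did not pass (0.15, SE 0.13). The call of Rps19bp1 ended with quantile normalization again (-0.23, adjusted p = 0.260). Rps19bp1 had 7.77, 7.85 and 7.90 in knockout and 8.17, 8.51 and 8.23 in control Ter119- CD71+ cells, which do not overlap (-0.46, SE 0.12, adjusted p = 0.0740). It had 7.44 and 7.39 in knockout and 7.67, 7.86 and 7.97 in control Ter119+ CD71+ cells, again apart (-0.42, SE 0.14, adjusted p = 0.157). Neither difference passed the test. Rpl7l1 had -0.49 (SE 0.20, adjusted p = 0.265) and -0.34 (SE 0.23) in the same comparisons.

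Some markers of other cells also changed along the control span, where 18.1% of all genes were called higher and 20.1% lower. All 9 measured hepatocyte markers rose, and their mean lay between 6.17 and 6.41 on Ter119- CD71+ and between 7.54 and 7.61 on Ter119+ CD71med control arrays. All 4 measured megakaryocyte markers rose, with means of 6.05 to 6.34 and 7.0 to 7.43. Of 12 macrophage markers 5 were called higher and 1 lower, and 0 of 5 lymphoid markers were called by limma (2 at an unadjusted p under 0.05). Of 14 myeloid markers 3 were called higher, close to the 18.1% of all genes. The upper quartile over all genes was 7.82 to 7.92 on the former and 7.27 to 7.42 on the latter arrays. The part of these in the fall of the ribosomal protein genes was not tested.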

How the data were processed

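RNA of 13 sorted samples was measured on single-colour arrays, and the deposited values are log2 signals. The submitters' processing notes name RMA, and the mm9 build without a role. RMA corrects background, quantile-normalizes and summarizes probes. The sources used here give neither its version nor the probe positions. The table holds 35556 probe sets with values from 1.62 to 13.5. Those with 1 listed symbol (21789) were reduced to 19938 genes by the brightest probe set, and 1621 with several and 12146 with no listed symbol were left out of gene tests. All 57 genes kept by the rule matched the RefSeq table by gene ID.

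limma 3.58.1 (lmFit and eBayes, R 4.3.3) was fitted to all genes with 5 group means over 13 arrays, with 8 residual and 5.56 prior degrees of freedom. P-values were two-sided and Benjamini-Hochberg adjusted over all genes, with calls made under 0.05. Lists were described by counts and medians without a test of their own. The fit was tested on simulated data. Members, lists and named genes were chosen with earlier results of these data known. Named members were the called genes with the largest differences and no overlap between groups, up to 4 a comparison, or where none was called the 2 with the smallest p, the 3 brightest and dimmest of each subunit, the stalk genes, Rpl5, Rps19, Rps6 and the members apart. Others were added after their values were seen, and examples from other lists were likewise taken by their values. Embryo numbers in the titles link populations of an embryo. Deviations from the group means had correlations of -0.23 to 0.35 in the 9 pairs of arrays that share an embryo, above 0.1 in 4. These numbers mark the same animal, so embryo was tried as a block. Alternatives are given below the report, and only the number of arrays is named here as a limit on precision. Summaries and figures were made with matplotlib 3.10.9, numpy 2.4.6 and pandas 2.3.3 in Python 3.11.15.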

Additional observations from a re-analysis of the deposited data

How the results depend on the processing

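Counts and medians over the 54 members were recomputed with another normalization, centring, weights, filter, eBayes setting, probe set choice, covariate or block and without each array in turn, and calls below 0 stayed below 0 in the control span under each of these. Knockout comparisons: array weights called 1 member in Ter119- CD71+ cells (Rps14, 0.44), quantile normalization again moved the Ter119+ CD71+ median to 0.10, leaving out arrays gave 0 to 2 calls there, and the median of the difference between knockout effects ran from -0.068 to 0.059. First control step (10 calls, median -0.16): quantile normalization again gave 19 calls and a median of -0.22, median centring 6 and array weights 20, and leaving out arrays gave 5 to 13 calls and medians from -0.17 to -0.14. Second control step (13 calls, median -0.23): quantile normalization again gave 24 calls and -0.30, median centring a median of -0.31 and the second brightest probe sets, an alternative chosen after seeing the data, -0.29, and leaving out arrays gave 4 to 17 calls and medians from -0.27 to -0.23. Control span (30 calls, median -0.39): the medians were -0.48 with quantile normalization again and -0.47 with centring, and leaving out arrays gave 25 to 31 calls and medians from -0.43 to -0.38. Those scalings moved the all-gene median of the span by -0.105 and -0.076. Knockout step (7 calls, median -0.15): 3 calls with only the groups compared, 1 with array weights, 3 with embryo as a fixed replicate block and 1 with the myeloid marker mean, also chosen after seeing the data, and leaving out arrays gave 0 to 12 calls and medians from -0.21 to -0.081. The pairing by embryo as a random replicate block changed no call of a named member (consensus correlation 0.00385), and the fixed block ended 1. The control span difference of Rps4x (-0.02) reversed to 0.0081 with the mean of all probe sets, 0.016 with array weights, 0.013 with the fixed replicate block, 0.016 with the myeloid mean, 0.042 with the second brightest probe set and 0.020 to 0.030 without control Ter119- CD71+ embryo 2 or Ter119+ CD71med embryo 15, with a range of -0.071 to 0.030 over single arrays left out, and that of Rps23rg1 (0.15) turned to -0.063 without the latter array, with a range of -0.063 to 0.36. The cause was not tested. With 2 arrays in each of 2 groups, a median SE of about 0.1 limits what could be called.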
